A study of Homo sapiens with 4 samples.

Results

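The nuclear genes of the respiratory chain were examined in the human breast cancer line MDA-MB-231, an established line of the triple-negative kind. They were taken by gene symbol: every protein-coding entry whose symbol began with NDUF, SDHAF, UQCR, ATP5 or COX followed by a digit, together with SDHA to SDHD, CYC1 and CYCS. The rule gave 101 of the 12120 protein-coding genes listed, through 208 of 26348 protein-coding transcripts. They comprised 74 structural subunits (34 of complex I, 4 of complex II, 9 of complex III, 12 of complex IV and 15 of complex V), 22 assembly factors, cytochrome c, 2 readthrough genes and 2 genes that only carry an ATP synthase name.

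The study had 4 RNA-seq libraries of unmodified MDA-MB-231 cells in culture, 2 from cells given the solvent DMSO and 2 from cells given 10 µM KH-3, a small-molecule inhibitor of the RNA-binding protein HuR, each for 24 h. Libraries were made from total RNA with an mRNA library kit, and the study's methods call the 2 libraries of a condition biological replicates. The quantity used here was the authors' mean normalized read count of each transcript, a single value pooled over libraries that are not specified. It therefore has no standard deviation or n, and the depth of each library is unknown. The difference between KH-3 and DMSO is not analysed here, and no test was made. All comparisons below are between genes within that pooled mean, and differences between neighbouring levels cannot be judged against replicate spread. Since these are bulk libraries, fewer cells with a transcript and less of it per cell cannot be told apart.

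A gene's level was the sum, over its protein-coding transcripts, of the mean normalized read count divided by the transcript length, in normalized reads per kilobase. Only transcripts with a row have a value, and the lowest mean listed for any transcript was 7.34 normalized reads. Of the markers of the cell line, the mesenchymal genes VIM, AXL, MSN and CD44 were at 3786, 2814, 2755 and 427 normalized reads per kilobase, whereas ESR1, PGR, CDH1 and ESRP1 had no row among those used.

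The respiratory chain lies in the inner mitochondrial membrane. Complexes I and II pass electrons from NADH and succinate to ubiquinone, complex III passes them on to cytochrome c, and complex IV reduces oxygen. Complexes I, III and IV pump protons, and complex V, the ATP synthase, uses the resulting gradient to make ATP. A few subunits of each complex except complex II are encoded by mitochondrial DNA, and all others are made from nuclear genes, many of which are known to be under the transcription factors NRF1, GABP (of the ETS family) and YY1.

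Promoter sequences were therefore set beside the levels, because sites for these factors are a feature that the choice of genes by symbol did not use. RefSeq promoter windows, from 250 bases before to 50 bases after the gene start on GRCh38.p14, were matched by symbol for 83 of the 101 genes and searched on both strands. The NRF1 motif GCGCANGCG was found in 25 windows (30.1%), against 9.64% of all 22199 promoter windows. Those 22199 windows were of all RefSeq protein-coding genes, whether or not listed here, and were not reduced to 1 per gene. Shares among the listed genes alone were not computed. The ETS motif CCGGAAGT was found in 13 windows (15.7%, against 5.34%) and the YY1 motif AAGATGGCG in 8 (9.64%, against 2.41%); none of the motifs contains another, and overlapping matches of 1 motif were counted once. At least 1 of them was present in 39 windows, and 7 windows held more than 1 kind. The YY1 letters include ATG, and the windows reach past the gene start, so a match can also be the start of a coding sequence. Which of these applies was not tested. A match is a description of the letters, not of binding.

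The windows shown here were chosen because they come from promoters with repeated matches or matches of several kinds, with SDHB, which had a single match, added to show the YY1 letters beside those of UQCRC1. Each is printed on its gene's strand, 5′ to 3′, with the motif in capitals. SDHA, the flavin subunit of complex II, had 4 matches to the NRF1 motif, on the plus strand at chr5:218144-218173, chr5:218193-218222, chr5:218242-218271 and chr5:218291-218320. These are equally spaced and hold the same motif letters, with similar bases before the motif in b, c and d. Whether they are copies of 1 repeat was not tested.
SDHA NRF1 a: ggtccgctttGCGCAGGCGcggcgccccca
SDHA NRF1 b: gtggcatggtGCGCAGGCGcgatgtccccc
SDHA NRF1 c: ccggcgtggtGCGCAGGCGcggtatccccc
SDHA NRF1 d: ccggtgtggtGCGCAGGCGcagtctgcgca
NDUFB4, an accessory subunit of complex I, had 3 such matches on the plus strand, of which those at chr3:120596167-120596196 and chr3:120596318-120596347 are shown.
NDUFB4 NRF1 a: agagcacttcGCGCATGCGcatatcaccga
NDUFB4 NRF1 c: cctcagaatcGCGCAGGCGcaattgtgccc
COX17, the copper chaperone of complex IV, had NRF1 matches at chr3:119677449-119677478 and chr3:119677503-119677532 on the minus strand, of which the latter is shown. It also had an ETS match (chr3:119677378-119677407, minus strand).
COX17 NRF1: gggcctccttGCGCATGCGctgaagggggc
COX17 ETS: tagagcgactgCCGGAAGTgactgcggacg
COX5B, a matrix-side subunit of complex IV, had ETS matches at chr2:97646014-97646043 and chr2:97646046-97646075 on the plus strand, the latter across the gene start.
COX5B ETS a: gaagcccgcccCCGGAAGTccctcctgtct
COX5B ETS b: gcagcttgttcCCGGAAGTtttgctgctag
The YY1 letters lay after the gene start in UQCRC1 (chr3:48609604-48609633, minus strand), a core protein of complex III, and in SDHB (chr1:17054003-17054032, minus strand), the iron-sulfur subunit of complex II.
UQCRC1 YY1: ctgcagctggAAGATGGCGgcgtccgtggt
SDHB YY1: gtcaggagccAAGATGGCGgcggtggtcgc
Median levels of the genes with and without a motif, in the unit described above, were 493.0 and 446.6 normalized reads per kilobase for NRF1, 662.1 and 363.7 for ETS, and 273.8 and 472.6 for YY1.

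As a group, the respiratory chain genes were listed at high levels. Their median was 467.5 normalized reads per kilobase (interquartile range 142.3 to 1145), against 117.2 (36.6 to 306.1) over all protein-coding genes, and 78 of the 101 (77.2%) lay above that overall median. In the top 10% of all genes there were 37 members and in the lowest 25% there were 12. The members spanned from 3.29 for ATP5A1 to 7218 for ATP5B. Dividing by length raises short genes. The leading transcripts of the members had a median length of 873 bases against 2920 over all genes, and with no division by length 56.4% of members lay above the overall median. Their protein-coding transcripts held 0.667% of all listed reads.

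Structural subunits had a median of 656.6 normalized reads per kilobase and assembly factors one of 176.5, a ratio of 3.72. The ratio was 2.37 with no division by length and 5.99 among genes whose current reference transcript (MANE Select) had a row. Of the subunits 62 of 74 lay above the overall median, and of the assembly factors 13 of 22. By complex the subunit medians were 1219 for complex V, 1001 for complex IV, 849.9 for complex II, 607.9 for complex III and 394.9 for complex I. The range within each complex was far wider than the distance between these medians, as the plot of levels by complex shows.

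**Figure D1:**
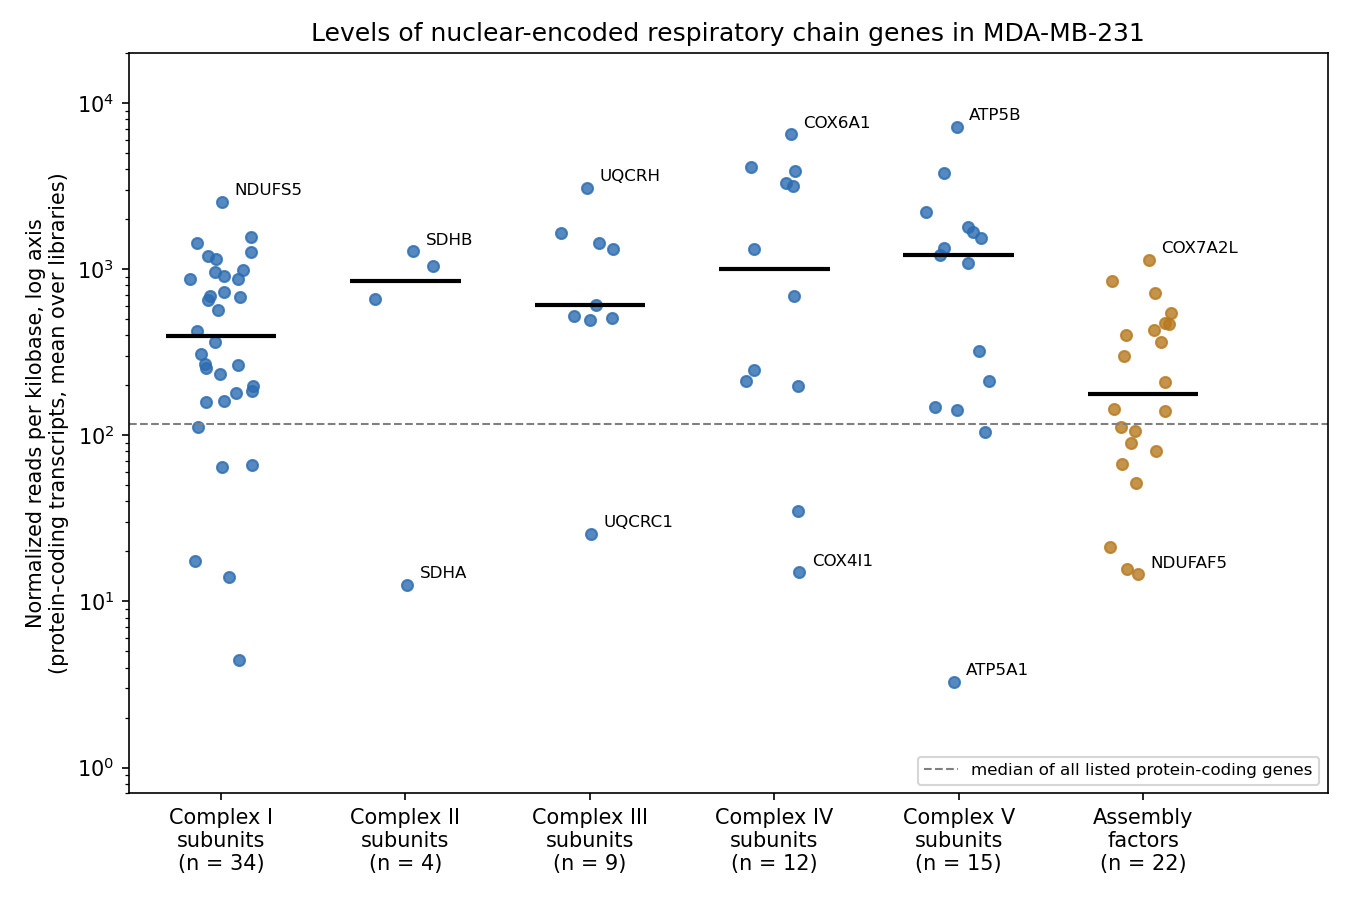
Level of each structural subunit by complex and of each assembly factor, in normalized reads per kilobase on a log axis; each point is 1 gene, spread sideways for legibility, and the bars are group medians. The dashed line is the median of all protein-coding genes (117.2): most subunits lie above it, while SDHA, UQCRC1 and ATP5A1 lie far below the other subunits of their complexes, and COX4I1 and COX6C far below the rest of complex IV.

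In complex I, the NADH dehydrogenase, the highest subunit was NDUFS5, an accessory subunit, at 2550 normalized reads per kilobase. It was followed by NDUFV2, an iron-sulfur subunit of the NADH-oxidising arm, at 1571, and by NDUFAB1, the mitochondrial acyl carrier protein, at 1444. Among the lowest was the accessory subunit NDUFB8, at 13.98, whose MANE Select transcript had no row. The 5 core subunits with a coding row had a median of 306.8 and the 29 accessory subunits one of 425.7, with overlapping ranges. The core subunits NDUFV1 and NDUFS7 and the accessory subunit NDUFC1 had no coding row and are not in these medians.

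Complex II, the succinate dehydrogenase, has only 4 subunits, all nuclear. SDHB was at 1290 normalized reads per kilobase, and the membrane anchors SDHC and SDHD were at 1038 and 662.1. SDHA was at 12.6, lower than SDHB by a factor of 102.4. That factor was 12.1 when all listed transcript types of both genes were included. The MANE Select transcript had a row for SDHB but not for SDHA.

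In complex III, UQCRH, the hinge protein, was highest at 3100 normalized reads per kilobase. UQCR10 was at 1642 and CYC1, cytochrome c1, at 1434. The Rieske iron-sulfur protein UQCRFS1 was at 493.0, and UQCRC1 stood lowest at 25.6, against 508.7 for its partner core protein UQCRC2. Over all transcript types this order turned, with UQCRC1 at 4557 and UQCRC2 at 1990.

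Complex IV, the cytochrome c oxidase, held several of the highest levels: COX6A1 at 6476, COX6B1 at 4096 and COX8A at 3910 normalized reads per kilobase. COX4I1, its largest nuclear-encoded subunit, was at 14.99, and COX6C at 35.1. The MANE Select transcript had a row for COX6C but not for COX4I1. COX6C had no rows of other types, and its coding rows summed to 25.8 mean normalized reads. These 3 rows were at 7.80, 8.59 and 9.45, close to the lowest mean listed for any transcript, 7.34. GENCODE 44, a later annotation, has 11 transcripts of COX6C, and those without a row have no value here. Cytochrome c itself, from CYCS, was at 4249.

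In complex V the catalytic beta subunit ATP5B was the highest member of the whole set, at 7218 normalized reads per kilobase. The membrane-side subunit gene ATP5J2 was at 3779 and the stalk subunit gene ATP5H at 2220. The lowest were ATP5J, coupling factor 6, at 104.9 and ATP5A1, the alpha subunit that alternates with beta in the catalytic head, at 3.29. The ratio of ATP5B to ATP5A1 was 2195 by coding transcripts and 137.9 over all listed types, where ATP5A1 was at 64.6. ATP5A1 had 1 coding row, of 5818 bases with 19.1 mean normalized reads, and 3 rows of other types. ATP5B had 4 coding rows and 4 of other types. GENCODE 44 has 20 transcripts of ATP5A1 and 11 of ATP5B. Those without a row enter neither ratio, and their part in it was not tested.

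Several positions in these complexes are filled by products of more than 1 gene. The proton-carrying c subunit of complex V is made as the same mature protein from ATP5G1, ATP5G2 and ATP5G3, and of their summed level ATP5G3 held 83.1%, ATP5G2 9.94% and ATP5G1 6.92%. ATP5G3 was at 1781 normalized reads per kilobase, ATP5G2 at 213.0 and ATP5G1 at 148.2, and ATP5G3 remained highest over all transcript types, at 2588. COX7B2, a gene usually restricted to few tissues, was at 687.1 against 246.2 for COX7B, but over all transcript types COX7B was at 1700 and COX7B2 still at 687.1. COX7A2L, a factor that joins complexes into supercomplexes, was at 1141 against 212.2 for its relative COX7A2, and over all types COX7A2 was at 1409 and COX7A2L at 1254. In these contrasts the MANE Select transcript had a row for ATP5G3, COX7B2 and COX7A2L. It had none for ATP5G1, ATP5G2, COX7B and COX7A2, and the part of this in the differences was not tested. The readthrough genes share sequence with their parents, so their values are uncertain: NDUFC2-KCTD14 was at 510.9 beside NDUFC2 at 872.2, and ATP5J2-PTCD1 was at 129.1.

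Among the assembly factors, those of complex I ran from NDUFAF5, which hydroxylates NDUFS7, at 14.7 normalized reads per kilobase, and NDUFAF6 at 15.6, up to NDUFAF8 at 546.5 and NDUFAF2 at 851.1. Those of complex II were SDHAF2, needed to add flavin to SDHA, at 467.5, SDHAF3 and SDHAF1, both tied to the iron-sulfur clusters of SDHB, at 208.3 and 113.0, and SDHAF4 at 90.3. In complex IV the copper chaperone COX17 was at 717.5, whereas COX19, also tied to copper delivery, was at 67.3 and COX18, which inserts a mitochondrially made subunit into the membrane, at 51.5. The medians were 189.7, 160.6 and 273.3 for the factors of complexes I, II and IV.

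The low coding levels of some subunits coincided with reads listed under other transcript types of the same gene: retained introns, processed transcripts without a coding frame, and transcripts subject to nonsense-mediated decay. Of all reads of the 101 genes, 27.0% were in these types, against 11.8% over all protein-coding genes. Retained introns held 12.0% (5.46% over all genes), processed transcripts 10.4% (2.996%) and decay transcripts 4.58% (3.33%). More than 50% of reads were in other types in 28 of 101 members (27.7%), against 1146 of all genes (9.46%).

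**Figure D2:**
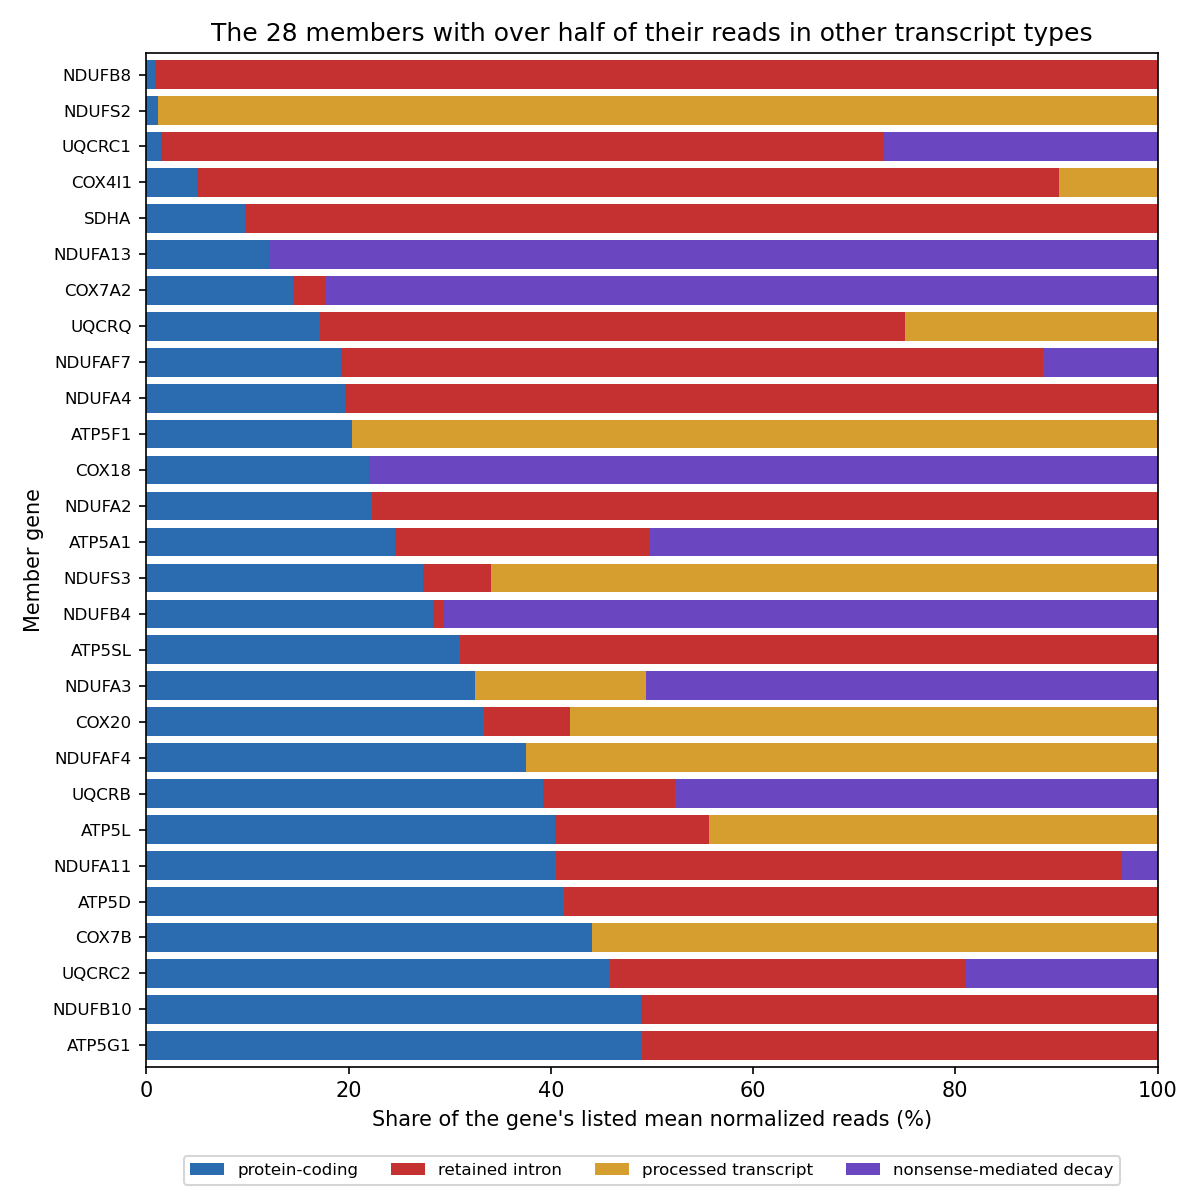
Percent of listed reads in each transcript type, as a stacked bar per gene, for the 28 respiratory chain genes with over 50% of reads in other types. Over all respiratory chain genes the other types together held 27.0%, against 11.8% over all protein-coding genes. These totals are not drawn as bars.

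Among the largest shares were those of NDUFB8 (99.1% of its reads), UQCRC1 (98.5%), COX4I1 (95.0%) and SDHA (90.2%). In NDUFB8 a retained-intron entry held 1081 mean normalized reads, whereas its coding entry held 9.56. Retained introns held 71.4% of the reads of UQCRC1, 85.2% of those of COX4I1 and 90.2% of those of SDHA. With all types, NDUFB8 went from 13.98 to 2823 normalized reads per kilobase, UQCRC1 from 25.6 to 4557, COX4I1 from 15.0 to 152 and SDHA from 12.6 to 170.6. Of the subunits in the lowest 25% of all genes, 7 of 8 had most of their reads in other types, against 579 of the 3030 protein-coding genes in that range (19.1%). NDUFA4, now counted with complex IV, was another such gene, with 80.3% of reads in retained introns and levels of 197.3 without and 3543 with them.

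The type that held these reads differed from gene to gene. Decay transcripts held 87.9% of the reads of NDUFA13, an accessory subunit of complex I, and 82.3% of those of COX7A2. Processed transcripts held 79.7% of the reads of ATP5F1, the b subunit of the ATP synthase stalk, whose level was 1342 from coding transcripts and 6121 over all types. UQCRQ, a small subunit of complex III, had 57.8% in a retained-intron entry and 24.98% in a processed transcript. By complex, the 28 genes with most reads in other types were 11 of complex I, 1 of complex II, 4 of complex III, 6 of complex IV and 6 of complex V, assembly factors included. The 6 counted under complex V include ATP5SL, which only carries an ATP synthase name and is not a structural subunit. In GENCODE 44 on GRCh38 the genes named for their large shares lie on different chromosomes: NDUFB8 at chr10:100523740-100530000, UQCRC1 at chr3:48599002-48610976, COX4I1 at chr16:85798633-85807068 and SDHA at chr5:218303-257082.

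**Figure D3:**
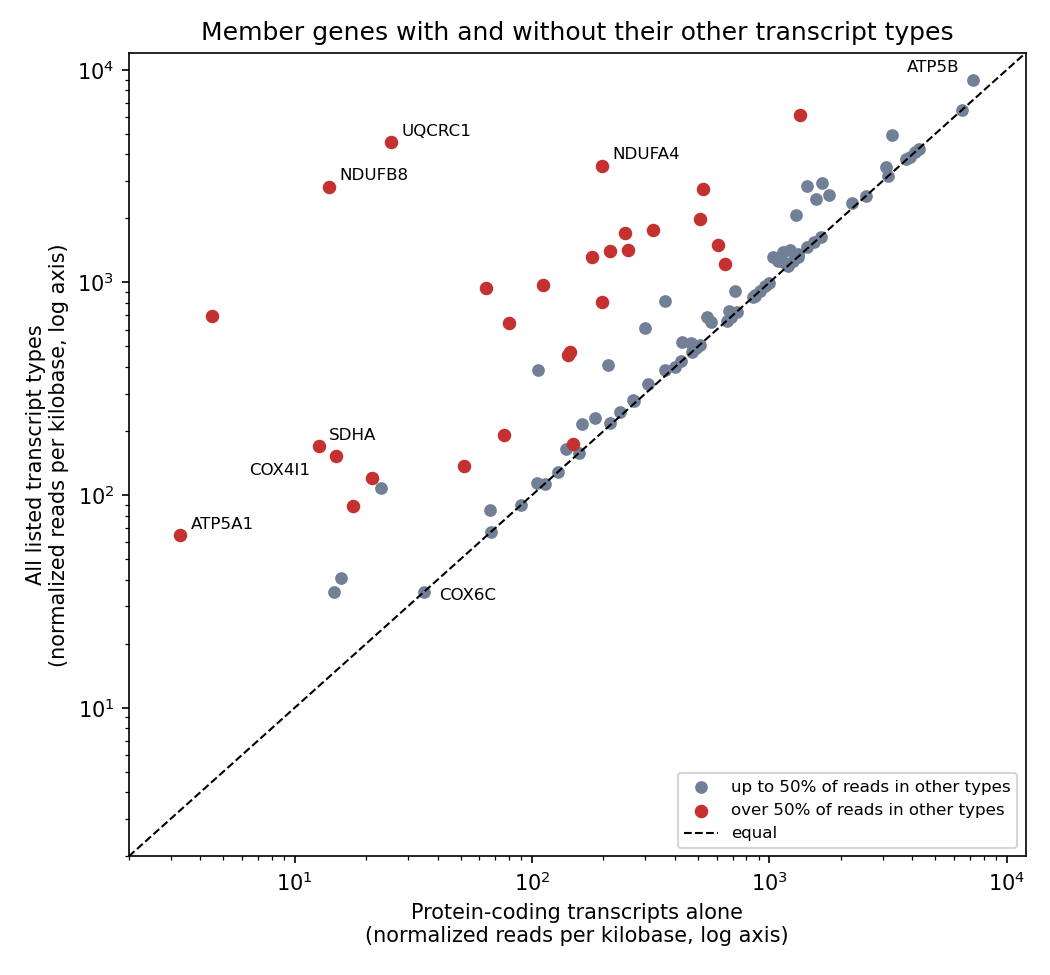
Level of each respiratory chain gene from protein-coding transcripts alone against the level over all listed transcript types, both in normalized reads per kilobase on log axes; red points have over 50% of reads in other types and the dashed line marks equal levels. NDUFB8 and UQCRC1 stand farthest above the line, and COX6C lies on it.

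Adding the other types changed the order of the complexes. The subunit medians became 2435 for complex IV, 1990 for complex III, 1546 for complex V, 990.2 for complex II and 841.6 for complex I. How reads were divided among overlapping transcripts was set by the authors' quantification, so its part in these shares was not tested. Of members with 2 or more coding transcripts the one with the highest level per kilobase held a median of 80.1% of the gene's coding level, and the lowest such shares of the level were 39.3% in NDUFB6, 47.1% in COX6C and 50.2% in NDUFB1.

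The annotation moved with the levels as well. The reference transcript chosen for each gene in the later GENCODE release 44 (MANE Select) had a row for 80 of the 99 members that have one (80.8%, against 86.1% of all genes). Members with that row had a median of 555.8 normalized reads per kilobase and the 19 without it one of 212.2, while all genes had 137.7 and 39.5. SDHA, COX4I1 and NDUFB8 were among the members without that row, whereas UQCRC1 and ATP5A1 had it. Genes with many annotated transcripts were also lower: the 76 members with up to 10 transcripts had a median of 577.2 and the 25 with more had 161.8, against 125.7 and 105.8 over all genes. The part of either in the levels was not tested.

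The subunits encoded by mitochondrial DNA were far above the nuclear ones. All 13 were listed, with a median of 41194 normalized reads per kilobase, from MT-ND6 at 4262 to MT-CO2 at 119654, and they held 5.95% of all listed reads. The ratio of the mitochondrial to the nuclear median was 74.0 in complex I, 36.3 in complex III (with 1 mitochondrial gene, MT-CYB), 117.1 in complex IV and 54.7 in complex V. With all transcript types of the nuclear genes these ratios were 34.7, 11.1, 48.1 and 43.1. In each of these complexes the lowest mitochondrial subunit was above the highest nuclear one, by a factor of 1.67 in complex I, 7.11 in complex III, 14.7 in complex IV and 4.12 in complex V, and this held over all types too, with factors of 1.51, 4.84, 14.6 and 3.34. Reads from nuclear copies of mitochondrial DNA cannot be told apart here.

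**Figure D4:**
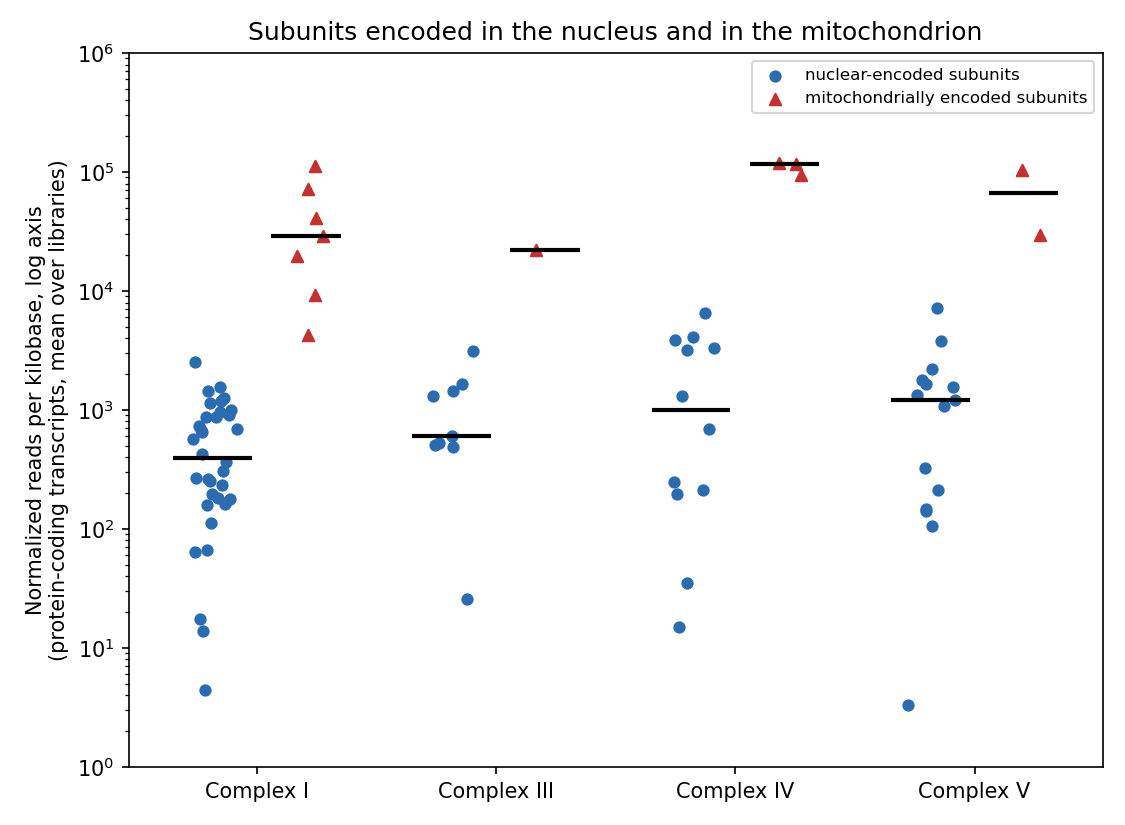
Levels of nuclear and mitochondrially encoded subunits of complexes I, III, IV and V, in normalized reads per kilobase on a log axis; each point is 1 gene and the bars are medians. In every complex shown the mitochondrial points lie above the nuclear ones, most narrowly in complex I.

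Of 32 further genes of the chain whose symbols fall outside the rule, mostly assembly and regulatory genes, 31 were listed, with a median of 171.5 normalized reads per kilobase, and 19 lay above the overall median. USMG5, which encodes a small membrane subunit of the ATP synthase, was highest at 3621, and C14orf2, another such subunit gene, was at 342.1. HIGD2A and ATPIF1, the inhibitor of the ATP synthase, were at 1664 and 1026. BCS1L, which inserts the Rieske protein into complex III, was at 5.58, and TTC19, another complex III factor, at 16.6. Of the 9 transcription regulators 6 lay above the overall median. TFAM, which packages and transcribes mitochondrial DNA, was at 1371, YY1 at 655, NRF1 at 62.0 and the coactivator gene PPARGC1A at 23.2.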

How the data were processed

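RNA-seq libraries of MDA-MB-231 cells (2 DMSO, 2 KH-3) had been mapped by the authors with STAR to the transcripts of GENCODE 24 (genome build hg38 per the labels), quantified per transcript with eXpress and compared with DESeq2 (versions are not given in the sources used here). The deposited table gives, per transcript, the mean normalized read count, a signal value scaled by the authors; the libraries behind it are not specified, and the methods also name a 5 µM group. Its other columns hold the authors' own fold changes, p-values and q-values and were not used, so no treatment effect was computed. No library total was given, so depth and counting error are unknown.

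Levels were computed with Python 3.11.15, pandas 2.3.3 and numpy 2.4.6 as mean normalized reads per kilobase of transcript length, summed over protein-coding transcripts, and the calculation was tested on simulated data. Genes were matched to GENCODE 44 by identifier and to RefSeq promoters by symbol. Genes named were, per complex, the 3 highest and 2 lowest subunits, the 2 highest and 2 lowest assembly factors, isoform genes, the 3 lowest leading-transcript shares and the 5 largest shares in other types; 1 gene that the rule names is not reported here, and further genes were chosen after their values were seen. The members and lists were chosen with earlier results of these data known. Alternatives changed the transcripts, length, filter (mean of at least 50), scale or genes.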

Additional observations from a re-analysis of the deposited data

How the results depend on the processing

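Medians and ratios were taken as unchanged within 5%. The share of members above the overall median (77.2%) was 85.1% with all transcript types and 56.4% with no division by length. For complexes I, II, III, IV and V in turn, the subunit medians in normalized reads per kilobase were 524.1, 1206, 961.2, 1459 and 1763 with 200 bases taken off the length, and 841.6, 990.2, 1990, 2435 and 1546 with all types. With transcripts of a mean of at least 50 they were 569.4, 1038, 504.7, 2228 and 1342. With the most abundant coding transcript alone they were 315.9, 615.0 and 493.0 for complexes I, II and III. Without isoform genes of restricted tissues complex IV was at 1315. With only genes whose MANE Select transcript was listed, an alternative chosen after seeing the data, complexes I, II, IV and V were at 676.4, 1038, 2242 and 1281. The ratio of subunit to assembly factor medians (3.72) was 3.27 with the most abundant transcript, 3.92 with trimmed lengths, 3.05 with all types, 2.51 with the filter, 2.37 with no division by length and 5.99 with MANE-listed genes, above 1 in each. The share of reads in other types was 32.8% per kilobase, against 19.9% over all protein-coding genes.

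No paired analysis was possible because the values used are a single mean over libraries, and leaving out a library was not run for the same reason. The order of the complexes depended on the alternative, with complex III and not complex I lowest under the filter and among MANE-listed genes.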

Other observations

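Some genes of the same families had no coding row among those used and so were not counted as members. NDUFV1, the flavin-binding core subunit of complex I, had 119.7 mean normalized reads over 5 rows of other types, NDUFS7, another core subunit, had 17.0 and NDUFC1, an accessory subunit, had 13.8. The pseudogenes NDUFV2P1 and UQCRFS1P1 had 151 and 27.8 mean normalized reads. Pseudogenes share sequence with their parent genes, so these values are uncertain.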
